A study of Sus scrofa with 8 samples.

Results

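Phase II enzymes make foreign and waste compounds water soluble by attaching sulfate, glucuronic acid or glutathione to them, and epoxide hydrolases add water to reactive epoxides. Enterocytes carry many of these enzymes, so the small intestine is, with the liver, a first barrier to compounds taken in with food and made by bacteria. Some of them also act on the body's own steroids, bile acids and products of lipid oxidation. A list of 10 such genes was described across weaned and suckling piglets: UGT1A6, UGT2B31, SULT1A1, SULT2A1, GSTA1, GSTA2, GSTO1, GSTP1, MGST1 and EPHX1. A gene was taken as measured where a probe on the array carried a RefSeq accession that the gene table pairs with its symbol, and its brightest probe over all arrays stood for it. This gave 6 genes of the 3216 with a symbol and a probe: the sulfotransferases SULT1A1 and SULT2A1, the glutathione transferases GSTA1, GSTO1 and MGST1, and the epoxide hydrolase EPHX1. SULT1A1 was matched as a synonym, because the table lists its accession under SULT1A3. UGT1A6, UGT2B31, GSTA2 and GSTP1 had no probe under this rule and were not analysed here, so no glucuronosyltransferase is described.

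RNA came from the middle of the jejunum, the long central stretch of the small intestine, of Duroc × Landrace piglets aged 25 days. The 4 weaned piglets had been taken from the sow at 21 days and fed a basal diet (digestible energy 14.48 MJ/kg, crude protein 20.50%), and the 4 suckling piglets had stayed with the sow. All piglets came from the same 4 litters, with 1 piglet per litter in each group, but the labels do not say which replicate came from which litter. Each 1-colour microarray held the RNA of a 2 cm piece of the whole gut wall from 1 piglet.

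Signals are given as log2 of the processed intensity minus the array's own 75th percentile, so 0 marks that percentile. The percentile lay between 316 and 390 on the weaned arrays and between 244.0 and 393 on the suckling arrays, and 67.6% to 71.0% of probes per array were well above background. All weaned arrays lay on one slide and all suckling arrays on another, so a slide effect and a group effect cannot be told apart for any gene. Suckling replicate 1 stood apart. Across 30554 tested probes, which are not independent, its median correlation was 0.975 with the weaned arrays and 0.954 with its own group, and it had the lowest percentile. Weaned replicate 3 was most like suckling replicate 3 (r = 0.983). All 10 enterocyte markers with a probe were well above background on at least 1 array. Of 13 hepatocyte markers with a probe, 3 (FGG, CYP7A1 and F9) were not well above background on any array. The other hepatocyte markers were so on at least 1 array.

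The comparison asks whether the jejunal transcripts of these enzymes differ between piglets weaned 4 days earlier and piglets still with the sow. By limma, with Benjamini-Hochberg adjustment over all tested probes, 0 of the 6 genes passed an adjusted p of 0.05, where 0.177% of all tested probes passed, 0.173% with a higher and 0.00327% with a lower weaned mean. At an unadjusted p under 0.05, 1 of the 6 passed, SULT2A1, higher in weaned piglets, where 12.3% of all tested probes did and 7.62% did with a higher weaned mean. The mean was higher in weaned piglets for 5 of the 6 genes, with EPHX1 the exception, and for 54.6% of all tested probes. The median log2 difference of the 6 genes was 0.32, beside 0.04 over all tested probes. None of the 6 brightest probes separated the groups without overlap, where 7.74% of tested probes did in either direction.

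**Figure D1:**
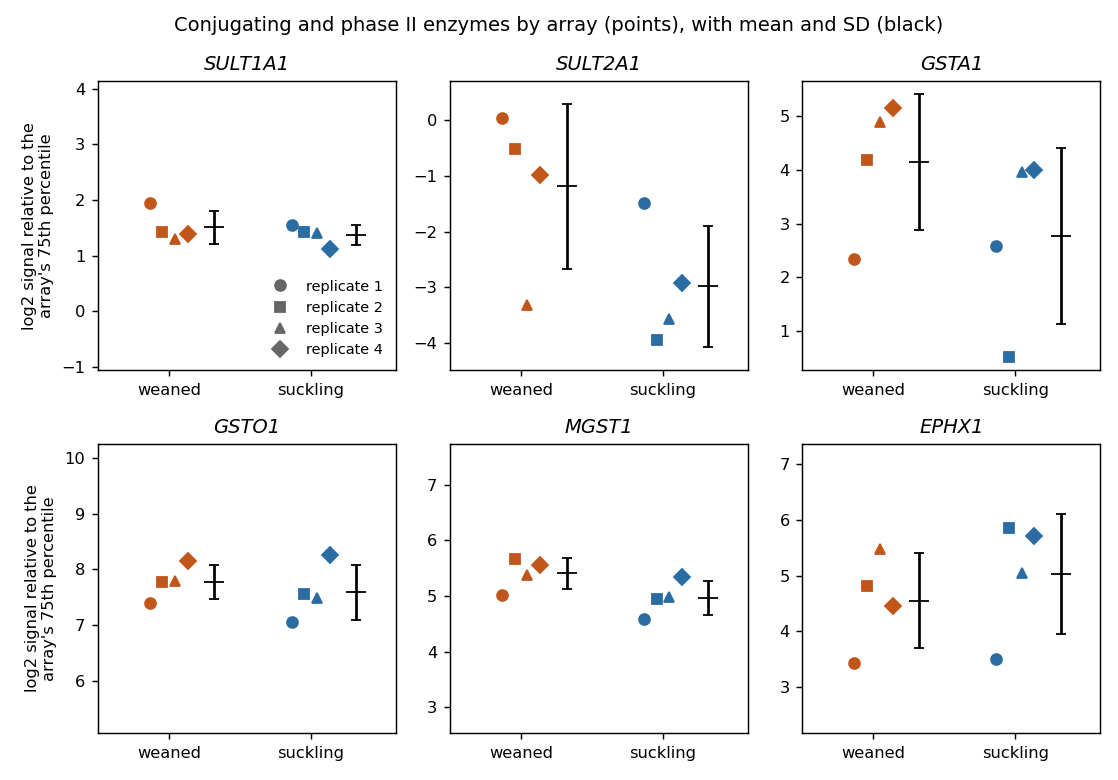
Log2 signal of the 6 measured genes on each array, relative to the array's 75th percentile, with weaned piglets left of suckling piglets and the mean and SD of 4 piglets in black. The vertical axes differ between panels. SULT2A1, GSTA1 and EPHX1 varied most between piglets of one group, and the groups overlapped for all 6 genes.

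Among the sulfotransferases, SULT2A1, which sulfates hydroxysteroids and bile acids, had the largest difference of the 6 genes. Its signal was 0.04, -0.50, -3.31 and -0.97 in weaned replicates 1 to 4, against -1.48, -3.95, -3.58 and -2.92 in suckling replicates 1 to 4. Weaned replicates 1, 2 and 4 lay above every suckling array, weaned replicate 3 lay among the lowest suckling arrays, and suckling replicate 1 was the highest of its group. The means were -1.19 ± 1.48 in weaned and -2.98 ± 1.09 in suckling piglets (log2, SD, n = 4 per group). The ratio of weaned over suckling was 3.48-fold, a log2 difference of 1.80 with SE 0.76 and a 95% interval of 0.09 to 3.51, and it did not pass (limma adjusted p = 0.384). Without suckling replicate 1 the log2 difference was 2.30 (limma adjusted p = 0.122), without weaned replicate 3 it was 2.51 (limma adjusted p = 0.184), and with normexp background correction it was 0.86.

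The second SULT2A1 probe ordered the arrays in nearly the same way. It had -1.73, -2.16, -4.78 and -2.71 in weaned replicates 1 to 4, against -3.83, -6.82, -6.18 and -4.92 in suckling replicates 1 to 4. The probe cleared background on each weaned array but on 2 of the 4 suckling arrays, replicates 1 and 4, so the 2 lowest values are measured near background. Its log2 difference was 2.60 (SE 0.78, limma adjusted p = 0.255), and 3.13 without suckling replicate 1 (limma adjusted p = 0.0693). Of 12 marker lists of gut and other cell types, that of crypt and dividing cells was singled out after the values were seen. As for SULT2A1, weaned replicates 1, 2 and 4 and suckling replicate 1 were its 4 highest arrays, though in another order. The score of this list per array is the median over 6 tested markers, of 15 listed, of the signal minus the marker's own mean. The score was 0.48, 0.24, -0.22 and 0.61 in weaned replicates 1 to 4, against 0.57, -0.80, -0.09 and -0.85 in suckling replicates 1 to 4. The summed level of these markers ran from 24.4 to 40.8 in weaned and from 16.1 to 42.2 in suckling piglets, in units of the array's 75th percentile. The score of goblet and Paneth cell markers, over 6 tested of 12 listed, was 0.61, 0.48, -0.33 and 0.85 in weaned replicates 1 to 4. In suckling replicates 1 to 4 it was -0.16, -0.07, -0.68 and -0.20. As for SULT2A1, weaned replicates 1, 2 and 4 lay above every suckling array in this score. The part of either list in the SULT2A1 values was not tested. In bulk tissue more cells of a type cannot be told apart from more RNA per cell.

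SULT1A1, a sulfotransferase of small phenols, varied little. Its signal was 1.95, 1.42, 1.30 and 1.38 in weaned replicates 1 to 4, against 1.54, 1.42, 1.40 and 1.13 in suckling replicates 1 to 4. Weaned replicate 1 was the highest array, and the other weaned values lay within the suckling range. The means were 1.51 ± 0.30 in weaned and 1.37 ± 0.18 in suckling piglets (log2, SD, n = 4 per group), a 1.10-fold ratio of weaned over suckling with a 95% interval of 0.825 to 1.47 (limma adjusted p = 0.798). Without weaned replicate 1 the log2 difference turned to -0.0067. The second SULT1A1 probe had means of 0.99 ± 0.32 in weaned and 0.99 ± 0.22 in suckling piglets, a 0.996-fold ratio. Sulfotransferases of the 1A group are close in sequence, and cross-hybridisation between them was not tested.

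**Figure D2:**
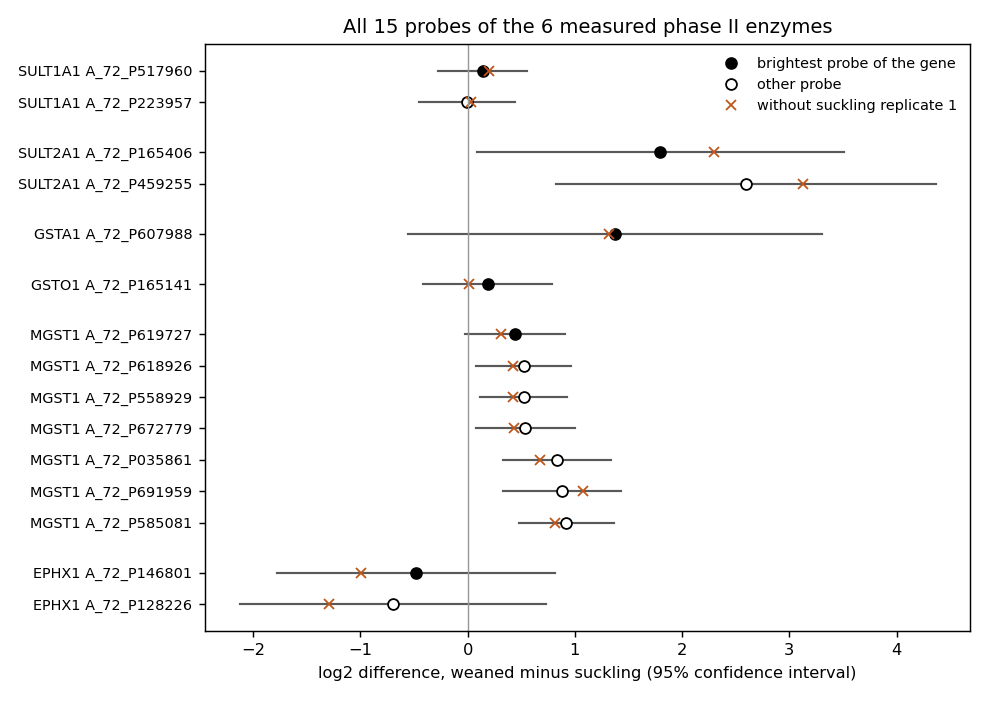
Log2 difference, weaned minus suckling, with its 95% confidence interval for all 15 probes of the 6 genes. Filled circles mark the brightest probe of a gene, open circles the others and crosses the difference without suckling replicate 1. All 7 MGST1 probes lie above 0, both EPHX1 probes lie below 0, and the widest intervals belong to SULT2A1, GSTA1 and EPHX1.

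Of the glutathione transferases, MGST1 is a membrane protein of the endoplasmic reticulum and mitochondria that conjugates glutathione and reduces lipid peroxides. Its brightest probe had 5.03, 5.66, 5.39 and 5.56 in weaned replicates 1 to 4, against 4.59, 4.96, 4.98 and 5.34 in suckling replicates 1 to 4. Replicate 1 was the lowest array of both groups, and weaned replicates 2, 3 and 4 lay above all suckling arrays. The means were 5.41 ± 0.28 in weaned and 4.97 ± 0.31 in suckling piglets (log2, SD, n = 4 per group). The ratio of weaned over suckling was 1.36-fold with a 95% interval of 0.981 to 1.88 and did not pass (limma adjusted p = 0.434).

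MGST1 was the gene with the most probes, 7, and the mean of each was higher in weaned piglets, by 0.44 to 0.92 on the log2 scale. In 2 of the 7 the groups did not overlap, where 4.84% of all tested probes were higher without overlap. Probe A_72_P585081 had 3.12, 3.40, 3.42 and 3.69 in weaned replicates 1 to 4, against 2.19, 2.47, 2.39 and 2.90 in suckling replicates 1 to 4, a 1.89-fold ratio with a 95% interval of 1.39 to 2.57 (limma adjusted p = 0.145). Probe A_72_P035861 had 5.00, 5.45, 5.20 and 5.68 in weaned replicates, against 4.02, 4.55, 4.55 and 4.86 in suckling replicates (log2 difference 0.84, limma adjusted p = 0.216). In both probes every weaned array lay above every suckling array, whereas in the 4 probes with the smallest differences suckling replicate 4 lay above weaned replicate 1. With the mean over the 7 probes in place of the brightest, the log2 difference was 0.67 (SE 0.18, limma adjusted p = 0.230).

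One MGST1 probe, A_72_P691959, went against the others in suckling replicate 1. It had 3.54, 4.01, 3.80 and 4.10 in weaned replicates 1 to 4, against 3.58, 2.61, 2.63 and 3.11 in suckling replicates 1 to 4. Suckling replicate 1 was here the highest of its group, while it was the lowest of its group for the other 6 probes. Without that array the log2 difference of this probe was 1.08 and it passed (limma adjusted p = 0.0441, where 1.81% of 30344 tested probes passed). With all 8 arrays it was 0.88 (SE 0.24, limma adjusted p = 0.230). In all, 0 of the 15 probes of the 6 genes passed with 8 arrays, beside 0.177% of all tested probes, and 8 of 15 had an unadjusted p under 0.05 by limma, beside 12.3%. Of these 8 probes, 6 target MGST1 and 2 target SULT2A1, so they are not separate observations.

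In 2 of the 12 marker lists the summed level separated the groups, where 7.74% of single tested probes did in either direction. These 2 lists were singled out by this separation, after the values were seen. A summed level gives most weight to the brightest markers. The summed level was higher in weaned piglets for macrophages and neutrophils, as for MGST1 probes A_72_P585081 and A_72_P035861, and lower for endothelium. For macrophages and neutrophils it ran from 349 to 468 in weaned and from 132 to 270.3 in suckling piglets, in units of the array's 75th percentile, over 12 tested markers of 15 listed. Of these 12 markers, 11 had a higher weaned mean and 3 were higher without overlap, where 4.84% of all tested probes were. Their score overlapped between groups, at -0.14 to 0.84 in weaned and -0.33 to -0.03 in suckling piglets. For endothelium the summed level of 6 tested markers of 10 listed ran from 14.7 to 14.9 in weaned and from 16.6 to 18.5 in suckling piglets. The endothelium score separated the groups too, at -0.20 to -0.10 in weaned and -0.03 to 0.25 in suckling piglets. Of the 6 markers, 1 had a higher weaned mean and 1 was lower without overlap, where 2.9% of all tested probes were. All markers with a probe in either list were tested, which required a signal well above background on at least 4 arrays. Their part in the values of MGST1 and of the other enzymes was not tested.

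**Figure D3:**
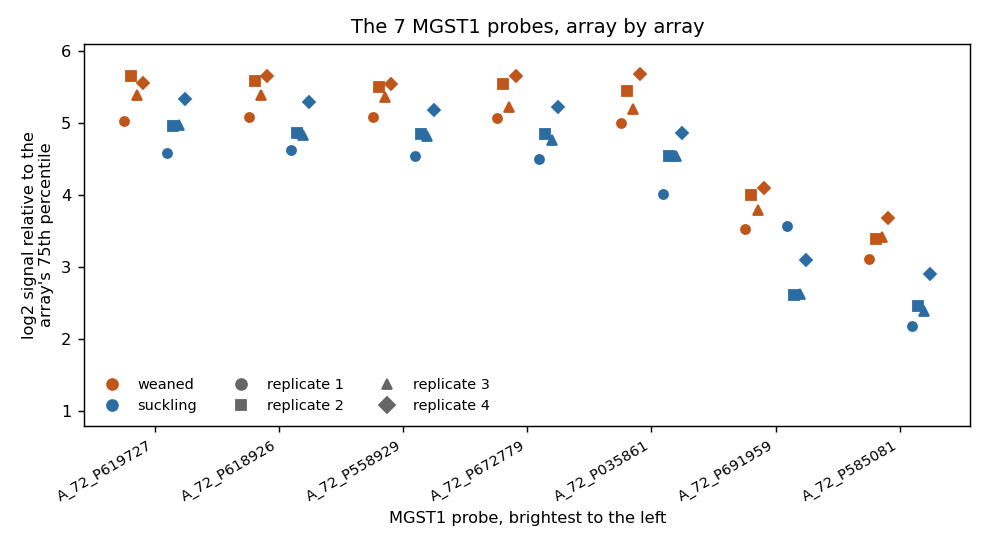
Log2 signal of the 7 MGST1 probes on each array, relative to the array's 75th percentile, with the weaned arrays left of the suckling arrays for each probe and the shape giving the replicate number. Each probe has a higher weaned mean, and A_72_P691959 is the probe in which suckling replicate 1 is the highest suckling array.

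GSTA1, an alpha-class glutathione transferase of the cytosol that is abundant in absorptive epithelium, had a single probe and spread widely. Its signal was 2.35, 4.18, 4.89 and 5.16 in weaned replicates 1 to 4, against 2.59, 0.52, 3.97 and 4.00 in suckling replicates 1 to 4. Suckling replicate 2 was far below the other arrays, weaned replicate 1 was the second lowest, and weaned replicates 2, 3 and 4 lay above every suckling array. The means were 4.15 ± 1.27 in weaned and 2.77 ± 1.64 in suckling piglets (log2, SD, n = 4 per group). The ratio of weaned over suckling was 2.60-fold with a 95% interval of 0.682 to 9.90 (limma adjusted p = 0.552), so neither a fall nor a large rise lies outside the interval. Without suckling replicate 2 the log2 difference was 0.63 (limma adjusted p = 0.799), and without weaned replicate 1 it was 1.98 (limma adjusted p = 0.586). Alpha-class transferases are near copies of each other, and the share of related transcripts such as GSTA2 in this signal was not tested.

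GSTO1, an omega-class enzyme that reduces dehydroascorbate and mixed disulfides rather than mainly conjugating glutathione, differed least among the 3 glutathione transferases. Its signal was 7.40, 7.77, 7.79 and 8.15 in weaned replicates 1 to 4, against 7.06, 7.55, 7.48 and 8.26 in suckling replicates 1 to 4. In both groups replicate 1 was lowest and replicate 4 highest, and the weaned values lay inside the suckling range. The means were 7.78 ± 0.31 in weaned and 7.59 ± 0.50 in suckling piglets (log2, SD, n = 4 per group), a 1.14-fold ratio with a 95% interval of 0.752 to 1.73 (limma adjusted p = 0.810). Without suckling replicate 1 the log2 difference was 0.01. Centred on their own means, GSTO1 and MGST1 were the pair of the 6 genes whose values differed least. They differed by 0.156 on average over the 8 arrays (log2), against 0.435 to 2.09 for the other pairs. This measure is not scaled to spread, so it is larger for pairs with a widely varying gene. Deviations from the own mean averaged 0.309 for GSTO1, but 0.743 for EPHX1, 1.23 for GSTA1 and 1.36 for SULT2A1.

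EPHX1, the microsomal epoxide hydrolase that turns epoxides left by cytochrome P450 enzymes into diols, was the 1 gene with a lower mean in weaned piglets. Its signal was 3.44, 4.81, 5.49 and 4.46 in weaned replicates 1 to 4, against 3.49, 5.85, 5.05 and 5.72 in suckling replicates 1 to 4. Replicate 1 was low in both groups, and the other 3 suckling values and weaned replicate 3 were the highest arrays. The means were 4.55 ± 0.86 in weaned and 5.03 ± 1.08 in suckling piglets (log2, SD, n = 4 per group), a 0.717-fold ratio of weaned over suckling with a 95% interval of 0.291 to 1.76 (limma adjusted p = 0.775). Without suckling replicate 1 the log2 difference was -0.99 (SE 0.45, limma adjusted p = 0.234), and without weaned replicate 1 it was -0.11. The second EPHX1 probe had 0.79, 2.17, 2.88 and 1.62 in weaned replicates 1 to 4, against 0.79, 3.40, 2.65 and 3.42 in suckling replicates 1 to 4. It kept the same 2 arrays lowest, and the difference was -0.70 in log2 units (SE 0.63, limma adjusted p = 0.694).

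The score of villus enterocyte markers, another list singled out after the values were seen, was low on the same arrays. It rested on 10 tested markers of 20 listed and was -0.52, -0.07, 0.33 and 0.08 in weaned replicates 1 to 4, against -1.43, 0.45, 0.24 and 1.02 in suckling replicates 1 to 4. The summed level of these markers ran from 1002 to 1701 in weaned and from 624 to 2778 in suckling piglets, in units of the array's 75th percentile. The score of all gut epithelium markers, over 6 tested of 14 listed, was lowest on the same arrays. It was -0.15 in weaned replicate 1 and -0.40 in suckling replicate 1, against -0.04 to 0.24 on the other arrays. The part of either list in the EPHX1 values was not tested. The hepatocyte list, in which 10 of 13 genes with a probe were well above background on at least 1 array, had a summed level of 3.98 to 7.39 in weaned and 4.88 to 8.16 in suckling piglets.

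**Figure D4:**
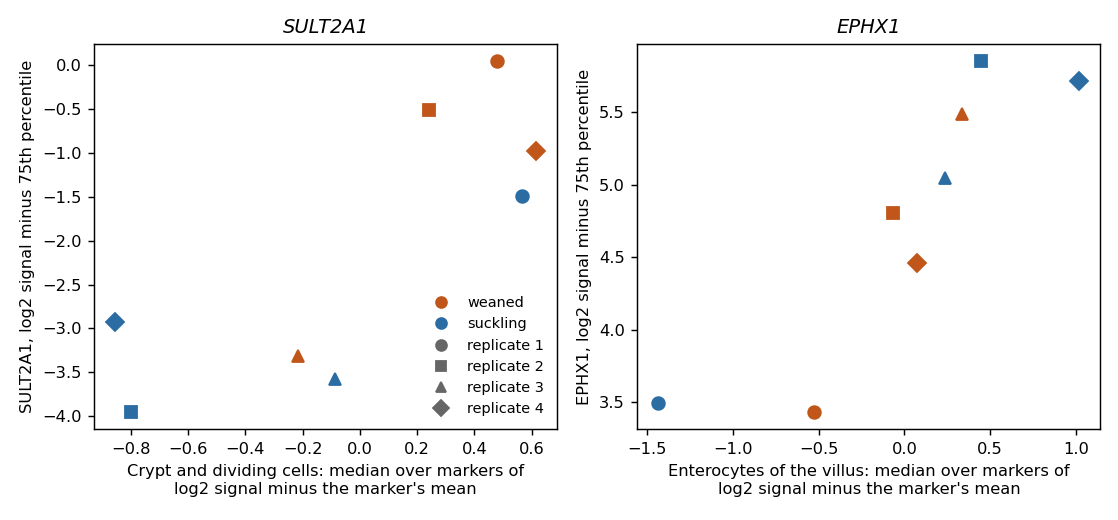
Log2 signal of SULT2A1 against the score of crypt and dividing cell markers, and of EPHX1 against the score of villus enterocyte markers, 1 point per array. Weaned replicates 1, 2 and 4 and suckling replicate 1 have positive crypt scores and the highest SULT2A1 signals, and replicate 1 of both groups has the lowest enterocyte scores and EPHX1 signals.

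The gene most like each enzyme was found by the mean absolute difference of centred values over 8 arrays, among 2767 genes, and is given for 5 of the 6. TBCCD1 differed from SULT1A1 by 0.0837, DLST from GSTO1 by 0.0903 and PROC from EPHX1 by 0.204 (log2). STEAP1 differed from SULT2A1 by 0.523 and ANXA8 from GSTA1 by 0.763. The second gene in line was close behind, at 0.0857 for SULT1A1, 0.0908 for GSTO1 and 0.239 for EPHX1. It was at 0.560 for SULT2A1 and 0.828 for GSTA1, so the first gene is not a distinct match. Deviations from the enzyme's own mean averaged 0.152 for SULT1A1, 0.309 for GSTO1, 0.743 for EPHX1, 1.36 for SULT2A1 and 1.23 for GSTA1. The differences for GSTA1 and SULT1A1 were large beside these deviations, so no named gene followed either closely.

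The other genes of detoxification were taken from 8 lists of 266 distinct genes, of which 84 had a probe and 79 were tested. Of these 79, 1 passed, CYP1A1, 38 had a higher mean in weaned piglets, and the median log2 difference was -0.02, beside 0.04 over all tested probes. In 7 genes the weaned arrays were higher without overlap and in 1, FTH1, they were lower, where 4.84% and 2.9% of all tested probes were.

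Of 7 other conjugating enzymes tested, 4 had a higher mean, with a median of 0.10 and none past the threshold. GSTA4, an alpha-class transferase of lipid aldehydes, was 0.46 ± 0.33 in weaned and -0.03 ± 0.23 in suckling piglets (log2, SD, n = 4 per group, limma adjusted p = 0.380). GSTZ1, which acts in tyrosine breakdown, was 2.18 ± 0.44 in weaned and 2.74 ± 1.23 in suckling piglets (limma adjusted p = 0.714). TPMT, a methyltransferase of thiopurine drugs, was -3.43 ± 0.69 in weaned and -4.06 ± 0.37 in suckling piglets (limma adjusted p = 0.492).

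Among 16 hydrolases and reductases, 10 had a higher mean, the median was 0.08 and none passed. AKR1B1, the aldose reductase, was 0.54, 0.38, 0.14 and 0.19 in weaned replicates 1 to 4, against 0.05, 0.11, -0.07 and -0.04 in suckling replicates 1 to 4. These groups did not overlap, but the log2 difference was 0.30 (SE 0.14, limma adjusted p = 0.447). On the other AKR1B1 probe the log2 difference was 0.04. CBR1, a carbonyl reductase, was 2.86 ± 0.32 in weaned and 2.31 ± 0.32 in suckling piglets (limma adjusted p = 0.366). AKR7A2, an aldehyde reductase, was 4.06 ± 0.34 in weaned and 3.43 ± 1.16 in suckling piglets (limma adjusted p = 0.652).

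The list of cofactor supply had 8 of 13 tested genes with a higher mean and a median of 0.22, and none passed. The 13 hold UGP2 of the UDP-glucose route, genes of glutathione and cysteine turnover, the cystine carrier subunits SLC3A1 and SLC7A9, genes of the methionine cycle, and TKT and TALDO1 of the pentose phosphate pathway. No gene that makes activated sulfate was among them. CTH, which makes cysteine for glutathione, was 3.64 ± 0.21 in weaned and 3.22 ± 0.23 in suckling piglets (log2, SD, n = 4 per group, limma adjusted p = 0.378). GSS, the glutathione synthetase, was 1.31 ± 0.20 in weaned and 0.93 ± 0.14 in suckling piglets (limma adjusted p = 0.384), and all 3 of its probes had a higher weaned mean. MAT1A, a synthetase of S-adenosylmethionine, the methyl donor, was -1.37 ± 0.76 in weaned and -3.41 ± 1.90 in suckling piglets (limma adjusted p = 0.378). It was the 1 further gene of the 8 lists past the threshold without suckling replicate 1 (log2 difference 2.96, limma adjusted p = 0.0293), and its 2 probes differed in direction.

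Carriers of conjugates had 4 tested genes, 3 with a higher mean and none past the threshold. SLC10A2, the bile acid transporter of the distal gut, had -3.77, -2.98, -3.30 and -1.49 in weaned replicates 1 to 4, against -4.26, -4.56, -5.89 and -7.72 in suckling replicates 1 to 4. The groups did not overlap, and the gene was well above background on 2 of 4 suckling arrays (log2 difference 2.72, SE 0.77, limma adjusted p = 0.234). SLC22A4, an organic cation carrier, was 1.57 ± 0.06 in weaned and 1.27 ± 0.15 in suckling piglets (limma adjusted p = 0.427), and its other probe pointed the other way. SLCO2A1, a prostaglandin carrier, was -2.62 ± 0.19 in weaned and -2.35 ± 0.55 in suckling piglets (limma adjusted p = 0.720).

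Of 17 genes tested in the list of transcription factors of phase II genes, 7 had a higher mean, the median was -0.05 and none passed. The 17 include KEAP1, which holds back the factor NFE2L2, and PPARGC1A, neither of them a transcription factor itself. KEAP1 was higher in weaned piglets without overlap (log2 difference 0.26, limma adjusted p = 0.477). AHR, the aryl hydrocarbon receptor, its partner ARNT and NFE2L2 were not among the 17. PPARG, a receptor for fatty acids, was 2.46, 2.45, 2.14 and 2.65 in weaned replicates 1 to 4, against 1.30, 0.09, 1.55 and 1.58 in suckling replicates 1 to 4. The groups did not overlap (log2 difference 1.29, SE 0.32, limma adjusted p = 0.194), but 1 of its 3 probes pointed downward, at -0.94. PPARGC1A, a coactivator of nuclear receptors, was 1.36 ± 0.61 in weaned and 2.45 ± 0.99 in suckling piglets (limma adjusted p = 0.415). FOXA1, a forkhead factor of epithelia, was 1.36 ± 0.43 in weaned and 0.84 ± 0.34 in suckling piglets (limma adjusted p = 0.454).

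Targets of the aryl hydrocarbon receptor and of NFE2L2, the factor that answers oxidants, were listed because both factors are known to switch on phase II genes. Of 3 tested genes listed as targets of the receptor, 2 had a higher mean and 1 passed, with a median of 0.24. CYP1A1, which oxidises planar aromatic compounds, cleared background on each of the 4 weaned arrays and on no suckling array. With dim suckling signals raised to the lowest signal well above background, the weaned mean was at least 15.9-fold higher. This bound leaves out the spread between piglets and holds for the processing used here. The measured means were -1.46 ± 1.07 in weaned and -5.95 ± 0.74 in suckling piglets (log2, SD, n = 4 per group). Their log2 difference had a 95% interval of 3.26 to 5.72 (limma adjusted p = 0.0186). The probe entered the test through the weaned arrays alone, so with a filter at all 8 arrays or with any weaned array left out it was not tested. With no filter on dim probes it passed (limma adjusted p = 0.0375). With normexp background correction the log2 difference was 1.16 and it did not pass (limma adjusted p = 0.164). Among the other settings, the replicate block aside, it did not pass without suckling replicate 2 (limma adjusted p = 0.0537) or without suckling replicate 3 (0.0542). The other tested genes of the receptor's list were NQO1 and LRAT. NQO1, a quinone reductase, was 0.70 ± 0.68 in weaned and 0.45 ± 0.52 in suckling piglets (limma adjusted p = 0.824). LRAT, which esterifies retinol, was -0.60 ± 0.45 in weaned and -0.03 ± 1.10 in suckling piglets (limma adjusted p = 0.685).

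Of 9 NFE2L2 targets tested, 5 had a higher mean, the median was 0.10 and none passed. GPX2, the glutathione peroxidase of gut epithelium, had 2.01, 0.82, -0.57 and 1.48 in weaned replicates 1 to 4, against -0.50, -1.79, -0.29 and -2.40 in suckling replicates 1 to 4. As with SULT2A1, weaned replicate 3 was the array that fell within the suckling range (log2 difference 2.18, SE 0.63, limma adjusted p = 0.241). TKT and TALDO1, enzymes of the pentose phosphate pathway, were 2.38 ± 0.11 and 6.09 ± 0.21 in weaned piglets, against 2.04 ± 0.27 and 5.65 ± 0.43 in suckling piglets (limma adjusted p = 0.448 and 0.487).

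The list of phase I cytochrome P450 enzymes, which act before conjugation, also holds POR and CYB5A, which pass electrons to these enzymes. Of its 15 tested genes, 4 had a higher mean. The median was -0.45, and -0.83 without suckling replicate 1. POR and CYB5A were among the lower genes, at log2 differences of -0.20 and -0.49. CYP1A1 was the 1 gene past the threshold. CYP4A24, a fatty acid hydroxylase, was 0.13 ± 0.14 in weaned and -0.41 ± 0.20 in suckling piglets, without overlap (log2 difference 0.54, SE 0.16, limma adjusted p = 0.244). CYP2A19 was -3.08 ± 0.32 in weaned and -3.50 ± 0.30 in suckling piglets (limma adjusted p = 0.476), and 4 of its 7 probes had a higher weaned mean.

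**Figure D5:**
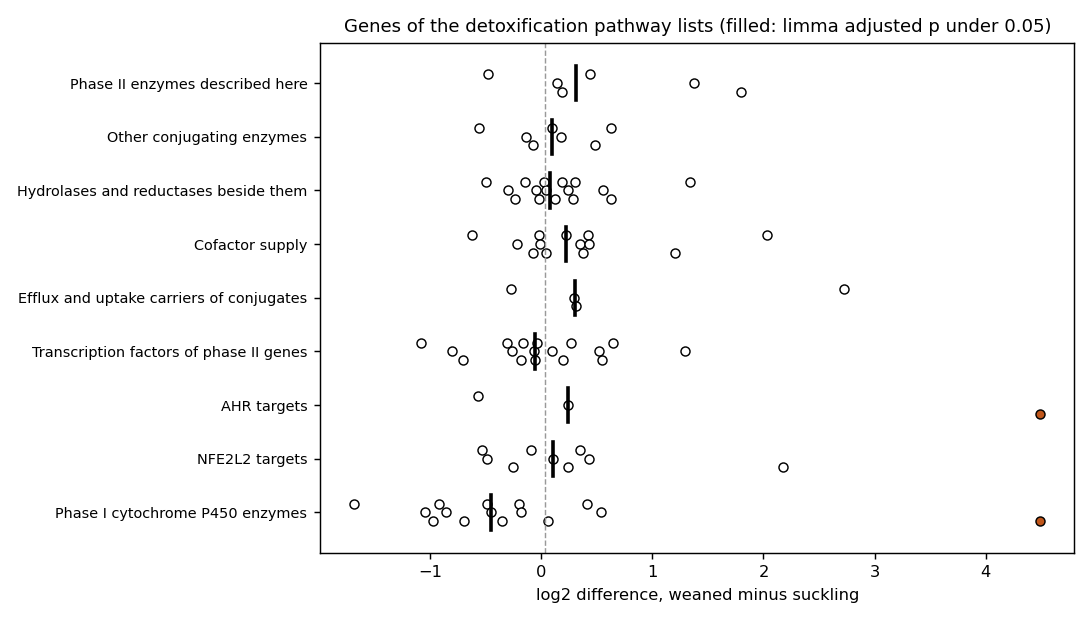
Log2 difference, weaned minus suckling, of each tested gene in the 8 detoxification lists and of the 6 enzymes described here, with the list median as a bar and the median of all tested probes as a dashed line. CYP1A1, filled and in 2 lists, is the gene past the threshold. Its plotted difference uses suckling signals near background, and the bound of 15.9-fold on it holds for the processing shown.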

How the data were processed

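RNA of integrity number 7.0 or above was labelled with Cy3 and hybridised, per the labels' protocols. The authors read the scans with Agilent Feature Extraction 10.7, per the submitters' processing notes, and deposited a background-subtracted processed intensity per spot. The deposited series table holds log2 values that follow the order of these intensities with a common distribution. Its normalisation and centring are not given in the sources used here, and its columns had a median of 5.50.

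Control spots were left out, outlier-flagged spots counted as missing, and the mean was taken over the spots of each probe, giving 43603 probes. Values were put on the log2 scale and the array's 75th percentile was subtracted. A probe was tested when well above background on at least 4 arrays with at least 3 values per group. Unversioned RefSeq accessions named 6924 probes through a gene table of Sscrofa11.1.

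The weaned and suckling groups were tested two-sidedly by limma (version 3.58.1, functions lmFit and eBayes, run under R 4.3.3) with no covariate. The script was tested on simulated data. Named genes were the 6 enzymes, per list the genes past the threshold and those with the smallest p up to 3, and the most similar gene of each enzyme, of which 1 is not reported here. The bound for a gene below background sets the bright group's mean against the higher of its dim signal and the lowest signal well above background on each array. The gene list and the other lists were chosen with earlier results of these data known. The number of arrays limits the precision, and no probe or gene sequences were used.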

Additional observations from a re-analysis of the deposited data

Results flagged for a closer look

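In 102 groups of 4 values, covering the probes of the 6 enzymes, the named pathway genes, the marker scores and the array percentiles, 5 held 1 array set well apart from its group, close to the 5.1 that chance gives. Each is given with the share of the group range that this gap takes up, in brackets, which passed Dixon's 95% critical value. Weaned replicate 1 was highest for the second SULT1A1 probe A_72_P223957, at 1.46 against 0.80 to 0.89 in the other weaned arrays (0.851). The 75th percentile of that array was also lowest among weaned arrays, 316 against 383 to 390 (0.905). Weaned replicate 3 was lowest for GSS, at 1.01 against 1.37 to 1.43 (0.847). Suckling replicate 1 was lowest for LRAT, at -1.66 against 0.35 to 0.75 (0.833). Suckling replicate 3 was highest for the smooth muscle marker score, at 0.77 against -0.34 to -0.23 (0.901).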

How the results depend on the processing

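None of the 6 enzymes passed under any of 19 alternatives to the processing, and 5 of them kept their direction in all 19. SULT1A1 ran from -0.0067 without weaned replicate 1 to 0.21 when 1 array was left out. The lowest limma adjusted p of any enzyme was 0.0942, for SULT2A1 with array weights. Over all tested probes, 54 passed, 326 with array weights, 0 with the replicate number as a block (4182 at an unadjusted p under 0.05), and 9 to 548 when 1 array was left out, 548 without suckling replicate 1. Of the 15 enzyme probes, 1 passed with array weights and 0 to 1 when 1 array was left out. Of the listed genes, 1 passed, 0 with normexp, with the filter at all 8 arrays and with the replicate block, and 0 to 2 when 1 array was left out. CYP1A1 was not tested under that filter or without any weaned array, and had a limma adjusted p of 0.0543 under the block. These counts for enzyme probes and listed genes were added after seeing the data. Same-numbered arrays deviated from their group means with correlations of 0.368, 0.00763, 0.186 and -0.0179 for numbers 1 to 4, so the numbers were not taken as pairs; number and slide position coincide. Under the replicate block the SULT2A1 difference had a limma adjusted p of 0.271. The cause of these changes was not tested. Signals near background limit SULT2A1, SLC10A2 and CYP1A1.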
